A study of Homo sapiens with 11 samples.

Results

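The thioredoxin, peroxiredoxin and sulfiredoxin system was followed through 10 genes chosen by name among the 60612 genes of the deposited gene table: SRXN1, TXNRD1, TXNRD2, TXN, TXN2, TXNIP, PRDX1, PRDX3, PRDX5 and PRDX6. All 10 were found by their gene identifiers. The study used a pair of established human cell lines from colorectal cancer, HCT-116 and RKO, exposed them to phenylacetaldehyde (PAA), an aromatic aldehyde, and sequenced their RNA. The 4 groups were HCT-116 given PAA for 24 h (n = 3), HCT-116 given the vehicle, 0.1% DMSO (n = 3), RKO given PAA for 24 h (n = 3) and RKO given 0.1% DMSO (n = 2, replicates 2 and 3). All groups grew in serum-containing medium with antibiotics, and the series title concerns the action of PAA on colorectal cancer. The PAA dose is not given in the sources used here. Whether the replicates were grown apart is not in the labels, and the spread behind each p-value may therefore be technical.

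The system passes electrons from NADPH to peroxides and to oxidised protein thiols. Thioredoxin reductase, a selenoprotein, reduces thioredoxin, and thioredoxin then reduces peroxiredoxins after they have removed a peroxide. A peroxiredoxin that is over-oxidised leaves the cycle until sulfiredoxin repairs it. The cytosol has TXN, TXNRD1, PRDX1, PRDX6 and SRXN1, the mitochondria have TXN2, TXNRD2 and PRDX3, and PRDX5 is found in several compartments. TXNIP binds thioredoxin and belongs to the alpha-arrestins. SRXN1 and TXNRD1 are textbook targets of NRF2, the factor that binds antioxidant response elements (AREs).

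Values are FPKM, fragments scaled for transcript length and for the size of the library, so levels can be set side by side between genes. Libraries held an estimated 13650000 to 22780000 fragments. Mitochondrially encoded transcripts held 31.2% to 31.4% of all FPKM in HCT-116 with PAA and 38.2% to 40.2% with DMSO, and 18.2% to 18.5% in RKO with PAA and 33.8% to 34.9% with DMSO. This share moved with PAA in both lines, and its part in the results was not tested beyond scaling the libraries to their nuclear total. Where a scaling turned the direction of a member's PAA effect within a line, the scaled value is given. The summed FPKM of 7 epithelial markers was 31.4 to 33.7 in RKO with PAA and 32.6 to 34.7 with DMSO, against 659 to 675 in HCT-116 with PAA and 742 to 808 with DMSO. CDH1, the epithelial cadherin, was at or near 0 in all RKO libraries. KRT8 and KRT19 were also far lower in RKO. EPCAM and KRT18 were lower there but present, at mean FPKM 5.34 and 20.4 with DMSO. CDX2 was at a similar level in both lines, averaging 5.50 with PAA and 4.09 with DMSO in RKO, against 4.52 and 4.63 in HCT-116. VIL1 was near 0 in both lines. The summed FPKM of 10 markers of other cell types was at most 7.97 in any library. In bulk RNA, fewer cells with a transcript and less of it per cell cannot be told apart.

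Promoter windows of 250 bases ending just before an annotated start are shown for the members whose levels moved most or differed most between the lines, SRXN1, TXNRD1 and TXNIP. They are RefSeq sequences on GRCh38.p14, 5′ to 3′ on the gene's strand. Capitals mark matches to the ARE core TGACNNNGC or to a pair of carbohydrate response elements, CACGNG and CACGNG with NNNNN between them, each searched on both strands; the 2 sets of matches did not overlap.
TXNRD1 downstream start, chr12:104286782-104287031, plus strand: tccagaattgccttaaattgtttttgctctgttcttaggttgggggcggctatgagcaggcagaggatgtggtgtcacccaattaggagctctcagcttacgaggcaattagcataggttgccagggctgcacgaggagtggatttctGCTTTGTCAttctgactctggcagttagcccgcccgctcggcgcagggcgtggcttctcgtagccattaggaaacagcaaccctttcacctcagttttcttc
TXNRD1 upstream start, chr12:104215529-104215778, plus strand: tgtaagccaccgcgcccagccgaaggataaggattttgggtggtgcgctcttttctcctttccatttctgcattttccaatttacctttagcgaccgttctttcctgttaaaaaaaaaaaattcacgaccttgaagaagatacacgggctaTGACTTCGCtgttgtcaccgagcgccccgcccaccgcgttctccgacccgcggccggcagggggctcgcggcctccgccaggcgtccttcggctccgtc
SRXN1, chr20:653201-653450, minus strand: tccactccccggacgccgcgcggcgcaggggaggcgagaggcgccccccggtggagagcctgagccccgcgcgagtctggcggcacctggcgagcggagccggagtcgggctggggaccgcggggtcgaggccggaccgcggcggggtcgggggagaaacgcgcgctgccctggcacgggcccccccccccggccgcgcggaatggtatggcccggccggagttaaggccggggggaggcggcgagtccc
TXNIP, chr1:145996580-145996829, minus strand: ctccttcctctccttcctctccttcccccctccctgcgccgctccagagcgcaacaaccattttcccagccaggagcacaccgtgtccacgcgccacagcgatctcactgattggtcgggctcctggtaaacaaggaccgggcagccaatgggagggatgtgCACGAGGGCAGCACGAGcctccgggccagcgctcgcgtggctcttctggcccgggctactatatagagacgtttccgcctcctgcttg

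An ARE core stood in both TXNRD1 windows, on the minus strand at 94 to 102 bases before the downstream start and on the plus strand at 91 to 99 bases before the upstream start. The SRXN1 window held no match, which says only that these letters are absent from this window. The only SRXN1 transcript annotated in GENCODE 29 starts at position 653370, inside the window. The larger part of the window therefore lies within that transcript, and only the rest is upstream of its start. Sequence farther upstream was not searched. Of all 35093 promoter windows of this length in the RefSeq table, 10.9% held an ARE core. The paired element stood in the TXNIP window shown, 72 to 88 bases before the start, and 0.0456% of all windows held it. TXNIP is known as a target of MondoA, a glucose-sensing factor that binds such elements. A second TXNIP window, chr1:145995745-145995994, held neither motif. Windows were found for 7 of the 10 members, 12 in all, and those of PRDX3, PRDX5, TXN and TXNRD2 held neither motif; PRDX1, PRDX6 and TXN2 were not matched.

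With PAA, the sulfiredoxin gene and the cytosolic reductase gene rose in both lines, and the mitochondrial peroxiredoxin gene PRDX3 fell in both. Thioredoxin itself rose in HCT-116 and by less in RKO, and TXNIP was lower with PAA in RKO. These RKO calls were lost under 5 of 22 alternatives for TXN and under 8 of 22 for TXNIP. In HCT-116, 6 members were higher and 3 lower with PAA at an adjusted p under 0.05, by limma's moderated test on log2(FPKM + 1) with Benjamini-Hochberg adjustment over 13881 genes. That line called 47.1% of all genes tested, 21.7% higher and 25.3% lower. In RKO, 3 members were higher and 4 lower, where 40.0% of all genes were called, 25.7% higher and 14.3% lower. With a common library total, 6 members were higher and 1 lower in each line, where 4028 of all genes were higher and 2546 lower in HCT-116, and 6902 were higher and 731 lower in RKO. The members' median log2 difference was 0.14 in HCT-116 and 0.04 in RKO, against -0.01 and 0.06 over all genes tested in these lines. With so many genes called in each line, the count of called members is no result about the members; their sizes and order are described below. The libraries of the 2 treatments did not overlap for 9 members in each line, all but TXNIP in HCT-116, where 56.5% of all genes were so separated, and all but PRDX6 in RKO, where 61.6% were.

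**Figure D1:**
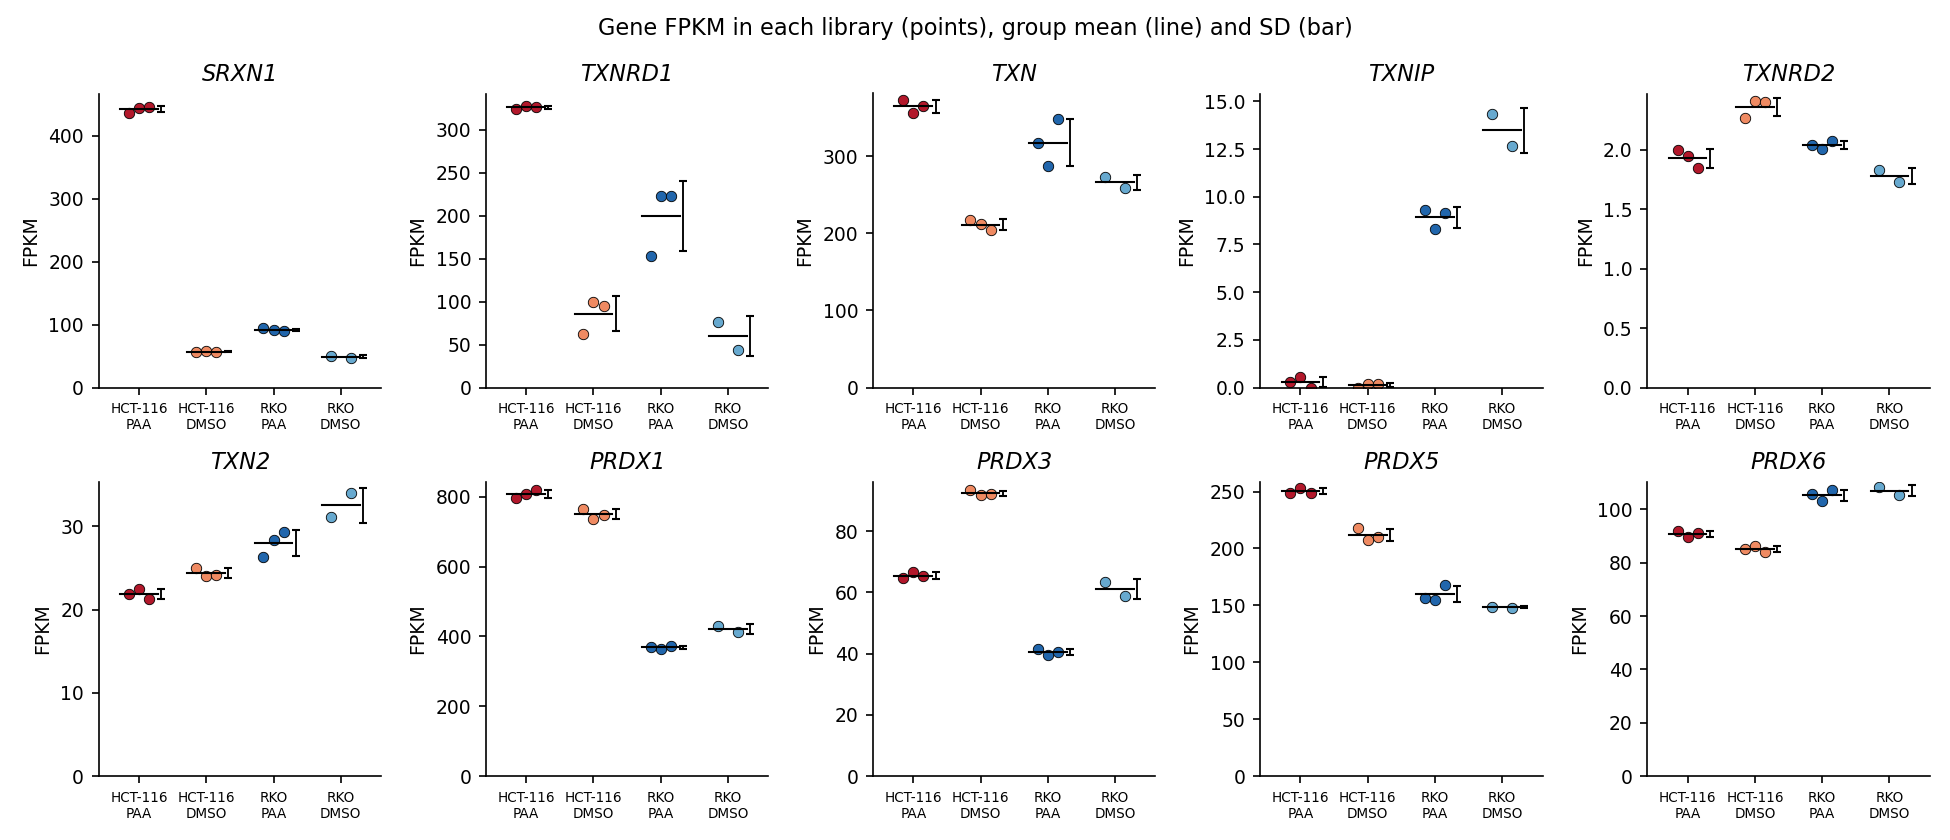
Gene FPKM of the 10 members (vertical axes, each starting at 0) in each library (points) of the 4 groups, with the group mean as a line and the SD as a bar. The 3 HCT-116 libraries with PAA stand far above the others for SRXN1, at 437 to 446, and TXNIP is near 0 in all 6 HCT-116 libraries.

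SRXN1 encodes sulfiredoxin, which repairs over-oxidised peroxiredoxins, and lies at chr20:646615-653370 on the minus strand (GRCh38, GENCODE 29), with 1 annotated transcript. In HCT-116 it had an FPKM of 437, 445 and 446 with PAA, against 57.1, 57.5 and 57.2 with DMSO. In RKO it had an FPKM of 93.9, 91.4 and 90.2 with PAA, against 50.5 and 47.1 with DMSO. The PAA libraries lay above the DMSO libraries in both lines, and no RKO library reached the level of any HCT-116 library with PAA. The log2 difference was 2.93 ± 0.031 (SE) in HCT-116 (adjusted p = 9.83e-11) and 0.90 ± 0.035 in RKO (adjusted p = 3.61e-07), by limma's test. Ordered by log2 difference among the 13881 genes tested, SRXN1 was 7th from the top in HCT-116 and 299th in RKO. The effect in RKO was smaller than that in HCT-116 by limma's test of the difference, -2.03 ± 0.046 log2 (adjusted p = 3.60e-08). SRXN1 shares exon sequence on the same strand with AL121758.1, whose median FPKM was 0.011.

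TXNRD1 encodes the cytosolic thioredoxin reductase and spans chr12:104215779-104350305 on the plus strand. In HCT-116 it had an FPKM of 325, 328 and 326 with PAA, against 62.8, 99.9 and 94.98 with DMSO. RKO libraries had an FPKM of 153, 223 and 223 with PAA, against 76.5 and 43.3 with DMSO. The groups did not overlap in either line, and DMSO replicate 1 of HCT-116 and PAA replicate 1 of RKO lay below the rest of their groups. The log2 difference was 1.94 ± 0.24 in HCT-116 (adjusted p = 0.000183) and 1.75 ± 0.27 in RKO (adjusted p = 0.00093), by limma's test. It ranked 31st from the top in HCT-116 and 30th in RKO. The 2 effects differed by -0.19 ± 0.37 log2, RKO minus HCT-116 (adjusted p = 0.749); leaving out each library moved this between -0.59 and 0.22. The effects themselves then lay between 1.73 and 2.06 in HCT-116 and between 1.35 and 2.16 in RKO, with every call kept.

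The selenocysteine of the reductases is encoded by a UGA codon near the end of the reading frame. The codons annotated in GENCODE 29 are shown with 15 bases before and 6 after, read from the transcript sequences, with the codon in capitals.
TXNRD1-212, codon at chr12:104348413-104348415, plus strand: ctccaggctggctgcTGAggttaa
TXNRD2-204, codon at chr22:19877111-19877113, minus strand: acggtgacaggctgcTGAgggtaa

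Of the 15 TXNRD1 transcripts expressed enough to test, 4 had this codon annotated, TXNRD1-205, TXNRD1-212, TXNRD1-214 and TXNRD1-215. TXNRD1-212 had an FPKM of 310, 313 and 310 in HCT-116 with PAA, against 5.08, 91.6 and 94.1 with DMSO. Its RKO values were 50.9, 217 and 216 with PAA, against 0.036 and 0.29 with DMSO. By limma's test over 46522 isoforms it was higher with PAA in RKO (6.87 ± 1.14 log2, adjusted p = 0.0124) and not called in HCT-116 (3.05 ± 1.02, adjusted p = 0.128). The size in RKO is uncertain, because the division between isoforms of 1 gene varied among replicates. TXNRD1-205, named after its values were seen, had 8.93, 9.04 and 8.68 in RKO with PAA, against 90.4 and 14.0 with DMSO (-1.91 ± 0.68 log2, limma adjusted p = 0.191). TXNRD1-213, a short transcript without the codon, was higher with PAA in both lines. It averaged 49.2 ± 2.67 with PAA and 20.9 ± 2.84 with DMSO in HCT-116 (SD, n = 3 each; 1.20 ± 0.15 log2 (SE), limma adjusted p = 0.00194). In RKO it averaged 111 ± 5.66 with PAA (n = 3) and 40.2 ± 11.6 with DMSO (n = 2; 1.47 ± 0.17 log2 (SE), limma adjusted p = 0.00223).

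TXNRD1-215 was called in neither line (HCT-116 3.79 ± 1.93, adjusted p = 0.326; RKO 5.11 ± 2.16, adjusted p = 0.278, limma). It had an FPKM of 297, 306 and 299 in HCT-116 with PAA, against 0, 110 and 92.6 with DMSO. The RKO levels were 336, 250 and 258 with PAA, against 64.6 and 0 with DMSO. The libraries where it is listed at 0, HCT-116 DMSO 1 and RKO DMSO 3, are the lowest of their lines for the gene, and an exact 0 can be a failed estimate of how reads were shared between isoforms.

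TXNRD1 transcripts were also grouped by their start, a grouping made after the isoform values were seen. The 4 transcripts that start far upstream (positions 104215779 to 104251546) held at most 0.159% of the length-weighted TXNRD1 signal in any library. The 16 transcripts that start in a downstream cluster (positions 104286002 to 104287368) held 69.5% to 69.8% in HCT-116 with PAA and 65.3% to 94.4% with DMSO. In RKO they held 38.3% to 67.9% with PAA and 76.4% to 91.5% with DMSO. Both windows shown above hold an ARE core, the one before the first upstream start and the one inside the downstream cluster. Of all 41 member isoforms tested, 6 were higher and 1 lower with PAA in HCT-116, where 7.28% of all isoforms were called, 3.35% higher and 3.94% lower. RKO had 3 higher and 1 lower, with 4.20% of all isoforms called, 2.53% higher and 1.67% lower. For the difference between the effects, 1.22% of all isoforms were called higher and 0.819% lower, 2.04% in all; TXN-202 was among the lower ones (-0.53 ± 0.098 log2, limma adjusted p = 0.0318).

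**Figure D2:**
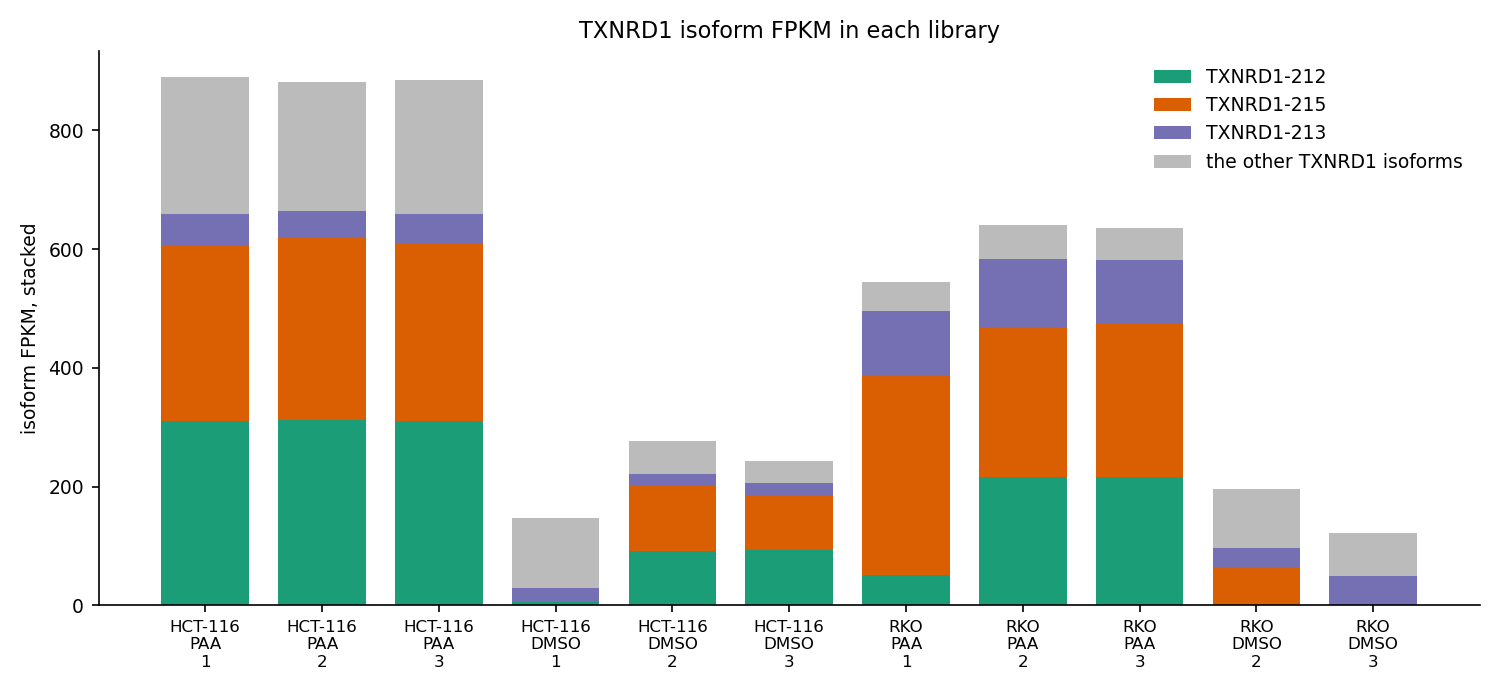
Isoform FPKM of TXNRD1 in each of the 11 libraries, stacked (vertical axis, FPKM), for the 3 isoforms of largest mean and for the others together. The sum is 882 to 890 in HCT-116 with PAA and 147 to 277 with DMSO, and TXNRD1-215 (orange) is listed at 0 in HCT-116 DMSO 1 and RKO DMSO 3.

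TXN (chr9:110243811-110256640, minus strand) encodes cytosolic thioredoxin. It had an FPKM of 373, 356 and 365 in HCT-116 with PAA, against 218, 212 and 205 with DMSO. In RKO it had 317, 288 and 348 with PAA, against 273 and 259 with DMSO. The PAA libraries lay above the DMSO libraries in both lines, by a narrow margin in RKO. The log2 difference was 0.78 ± 0.063 in HCT-116 (limma adjusted p = 1.06e-05). It was 0.25 ± 0.070 in RKO (limma adjusted p = 0.0188). The RKO call was lost under 5 of 22 alternatives. These were leaving out RKO DMSO replicate 3 (0.21), median-of-ratios scaling (0.14, adjusted p = 0.136), each line fitted alone (adjusted p = 0.108), the replicate block (adjusted p = 0.0998) and no filter on low values (adjusted p = 0.051). The effect was smaller in RKO than in HCT-116 by -0.53 ± 0.094 log2 (limma adjusted p = 0.00273). This call was lost after quantile normalization (-0.27, adjusted p = 0.0991).

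TXNIP (chr1:145992435-145996600, minus strand), which binds thioredoxin, separated the lines. It had an FPKM of 9.30, 8.29 and 9.17 in RKO with PAA, against 14.3 and 12.7 with DMSO. In HCT-116 it had 0.28, 0.54 and 0 with PAA, against 0, 0.18 and 0.18 with DMSO. Every RKO library lay above every HCT-116 library, and within RKO the PAA libraries lay below the DMSO libraries. HCT-116 values rested on 0 to 28.8 estimated fragments per library, and RKO values on 618 to 1130, so TXNIP passed the filter on low values only through RKO.

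In RKO TXNIP was lower with PAA by limma's test (-0.55 ± 0.16 log2, adjusted p = 0.0236). The call was lost without RKO PAA replicate 2 (adjusted p = 0.0666), RKO DMSO replicate 2 (adjusted p = 0.141) or RKO DMSO replicate 3 (adjusted p = 0.0563). It was also lost under a common library total (-0.28, adjusted p = 0.173), a pseudocount of 0.1 (adjusted p = 0.562) and the replicate block (adjusted p = 0.0749). Without the filter (adjusted p = 0.0589) and on summed isoform values (adjusted p = 0.0529) it was lost too, making 8 of 22 alternatives. In HCT-116 no effect was detectable at this depth (0.17 ± 0.14, limma adjusted p = 0.379), and only without PAA replicate 3, where TXNIP is listed at 0, was it called (0.33, adjusted p = 0.041). An effect at such depth is no measure to set against that in RKO. The fitted difference of -0.71 ± 0.22 log2, RKO minus HCT-116 (limma adjusted p = 0.0336), is given for completeness, and its call was lost under 12 of 21 alternatives, among them leaving out any 1 of HCT-116 PAA replicate 1, HCT-116 DMSO replicate 1 or the 5 RKO libraries (adjusted p between 0.0531 and 0.118).

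Of the mitochondrial members, PRDX3 fell in both lines under every alternative run, and TXN2 and TXNRD2 moved by less. PRDX3, the mitochondrial matrix peroxiredoxin (chr10:119167703-119178833, minus strand), had an FPKM of 64.6, 66.6 and 65.3 in HCT-116 with PAA, against 93.3, 91.8 and 92.0 with DMSO. RKO libraries had 41.5, 39.5 and 40.5 with PAA, against 63.4 and 58.8 with DMSO. The groups were well apart in both lines, and the RKO DMSO libraries lay below all HCT-116 libraries with PAA. PRDX3 fell by 0.49 ± 0.035 on the log2 scale in HCT-116 (limma adjusted p = 4.94e-06) and by 0.58 ± 0.039 in RKO (limma adjusted p = 7.14e-06). The difference between the effects, RKO minus HCT-116, was -0.09 ± 0.052 (limma adjusted p = 0.23). It was called only with median-of-ratios scaling (-0.20, adjusted p = 0.015), and it turned to 0.08 with a common total (adjusted p = 0.439). Of its 2 tested transcripts, the one at the higher level was also lower in both lines, by -0.49 ± 0.045 in HCT-116 and -0.61 ± 0.050 in RKO (limma adjusted p = 0.000373 and 0.000382).

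TXN2, the mitochondrial thioredoxin (chr22:36467036-36482030, minus strand), had an FPKM of 21.8, 22.5 and 21.3 in HCT-116 with PAA, against 25.1, 24.0 and 24.2 with DMSO. Its RKO values were 26.3, 28.4 and 29.3 with PAA, against 31.1 and 34.1 with DMSO. The PAA libraries lay below the DMSO libraries in both lines. Limma called it lower in HCT-116 (-0.15 ± 0.049, adjusted p = 0.0324) and in RKO (-0.21 ± 0.055, adjusted p = 0.0143). With a common total the value in RKO turned to 0.07 (adjusted p = 0.29) and that in HCT-116 came to -0.04 (adjusted p = 0.508). The HCT-116 call was also lost without any 1 of PAA replicates 1 and 3 or DMSO replicates 1, 2 and 3 (adjusted p between 0.0538 and 0.0986), and the RKO call without DMSO replicate 3 (adjusted p = 0.128).

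TXNRD2, the mitochondrial reductase (chr22:19875517-19941992, minus strand), was the lowest member in RKO and next to lowest in HCT-116. It had an FPKM of 2.00, 1.94 and 1.84 in HCT-116 with PAA, against 2.27, 2.41 and 2.40 with DMSO. The RKO levels were 2.04, 2.01 and 2.08 with PAA, against 1.83 and 1.73 with DMSO. The groups were apart in both lines on these gene values, with PAA below DMSO in HCT-116 and above it in RKO. Limma called it lower in HCT-116 (-0.20 ± 0.041, adjusted p = 0.00339), a call lost with a common total (-0.12, adjusted p = 0.0647). RKO missed the threshold (0.13 ± 0.046, adjusted p = 0.0503), and its value turned to -0.08 on summed isoform values (adjusted p = 0.721). It was called in RKO under 3 alternatives, with a common total (0.32, adjusted p = 0.000759), without the trend (adjusted p = 0.0348) and with the stricter filter (adjusted p = 0.0478). The difference between the effects passed (0.33 ± 0.061, limma adjusted p = 0.00367). Its call was lost on summed isoform values (0.39, adjusted p = 0.129) and with the replicate block (0.33, adjusted p = 0.0612).

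PRDX1, a cytosolic peroxiredoxin (chr1:45511036-45523047, minus strand), had the highest level of the 10 members in every group. It had an FPKM of 796, 808 and 819 in HCT-116 with PAA, against 765, 736 and 747 with DMSO. In RKO it had 369.6, 365 and 373 with PAA, against 431 and 412 with DMSO. The groups were apart in both lines, with PAA higher in HCT-116 and lower in RKO. Limma called a small rise in HCT-116 (0.11 ± 0.026 log2, adjusted p = 0.00837), which turned to -0.17 after quantile normalization (adjusted p = 0.0273) and missed the threshold with a common total over nuclear genes (0.05, adjusted p = 0.321). It called a fall in RKO (-0.19 ± 0.030, adjusted p = 0.000929), which turned to 0.10 with a common total (adjusted p = 0.0822). The difference between the effects was -0.30 ± 0.040 (limma adjusted p = 0.000609) and was lost with a common total (-0.13, adjusted p = 0.107) and after quantile normalization (adjusted p = 0.989). PRDX1 exons overlap those of MMACHC on the other strand, at a median FPKM of 4.27 for MMACHC.

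PRDX5, a peroxiredoxin found in mitochondria, peroxisomes and cytosol (chr11:64318088-64321811, plus strand), had an FPKM of 249, 253 and 249 in HCT-116 with PAA, against 218, 207 and 210 with DMSO. It rose there by 0.24 ± 0.035 log2 (limma adjusted p = 0.000499). RKO libraries had 157, 155 and 168 with PAA, against 149 and 148 with DMSO (0.11 ± 0.040, limma adjusted p = 0.0607). The RKO groups were apart by less than the spread within the PAA group. PRDX5 in RKO was called without PAA replicate 2 (0.13, adjusted p = 0.0406) and with a common total (0.39, adjusted p = 8.67e-05). The difference between the effects was not called (-0.13 ± 0.053, limma adjusted p = 0.0901), except without RKO PAA replicate 3 (-0.17, adjusted p = 0.0174) and with median-of-ratios scaling (-0.25, adjusted p = 0.00809).

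PRDX6, which uses glutathione in place of thioredoxin (chr1:173477266-173488807, plus strand), had an FPKM of 91.9, 89.5 and 91.1 in HCT-116 with PAA, against 85.2, 86.4 and 84.2 with DMSO. The log2 difference of 0.09 ± 0.027 was called (limma adjusted p = 0.0206), but not without PAA replicate 1 or 3 or DMSO replicate 1 or 3 (adjusted p between 0.0522 and 0.0651). It was also lost with the nuclear total (0.03, adjusted p = 0.512), after quantile normalization (0.07, adjusted p = 0.0766) and without the trend (adjusted p = 0.0531). Its RKO values were 106, 103 and 107 with PAA, against 108 and 106 with DMSO, and the groups overlapped. The RKO value of -0.02 ± 0.030 was not called (limma adjusted p = 0.607), and it was 0.26 with a common total (adjusted p = 0.000516) and -0.13 with median-of-ratios scaling (adjusted p = 0.00874).

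**Figure D3:**
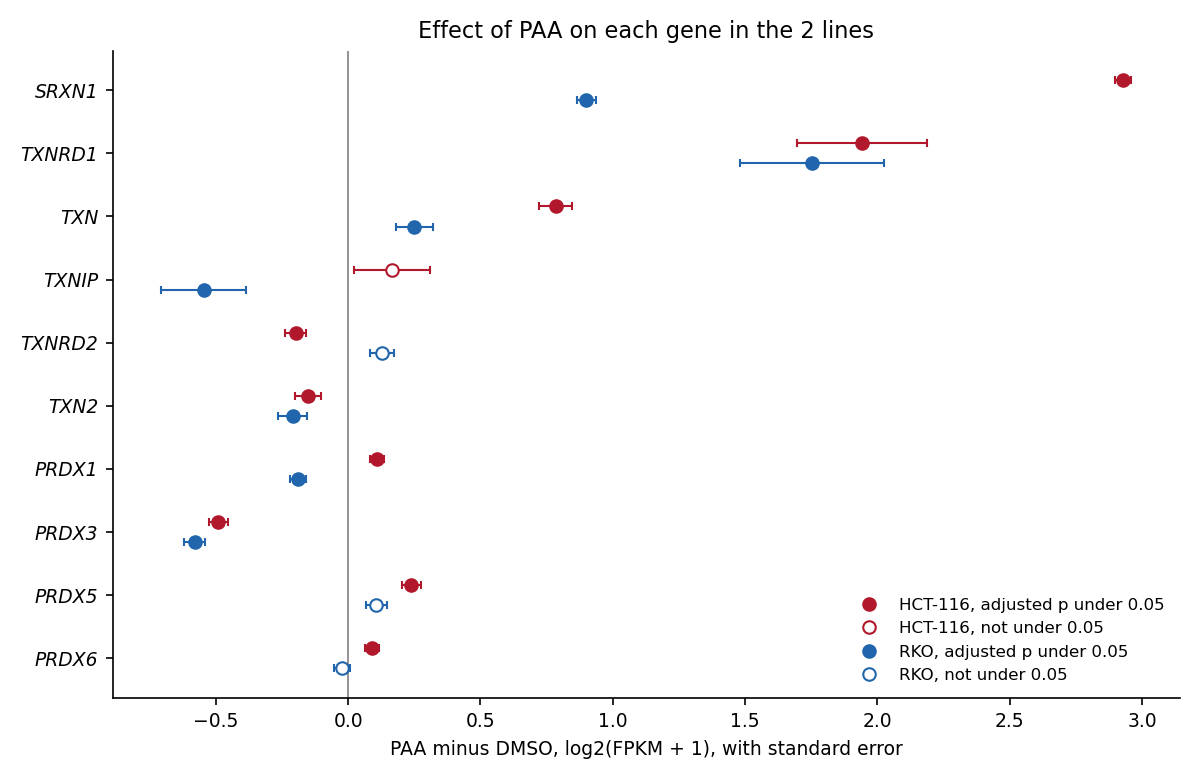
Log2 difference of FPKM + 1, PAA minus DMSO (horizontal axis), with its standard error, for each member in HCT-116 (red) and RKO (blue); filled points passed an adjusted p of 0.05. SRXN1 lies at 2.93 in HCT-116 and 0.90 in RKO, while TXNRD1 lies at 1.94 and 1.75 and PRDX3 at -0.49 and -0.58 in these lines.

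The order of the members on the deposited gene values changed with PAA. In HCT-116 with PAA, SRXN1 stood second behind PRDX1 with a mean FPKM of 443, above TXN at 365 and TXNRD1 at 326, and no neighbours in the order overlapped. In HCT-116 with DMSO it stood 7th at 57.3, below PRDX6. In RKO with PAA, TXNRD1 stood 3rd at 199.5 and overlapped with PRDX5 at 159.9, and SRXN1 stood 6th at 91.9. In RKO with DMSO, SRXN1 stood 7th at 48.8 and overlapped with TXNRD1 at 59.9, which overlapped with PRDX3 at 61.1. The order depends on how the gene value is formed. On summed isoform values in HCT-116 with PAA, TXNRD1 averaged 885 and TXN 501, both above SRXN1 at 443.

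Ratios within a library are unchanged by a factor that scales the whole library, which quantile normalization is not. They were added after the levels were seen, and compare transcript levels only. They also depend on the gene value used, here the deposited one. On summed isoform values TXNRD1 lay above TXN in HCT-116 with PAA, at means of 885 and 501. For each 100 FPKM of PRDX1 plus PRDX3, which encode peroxiredoxins that sulfiredoxin repairs, SRXN1 had 50.7 ± 0.21 in HCT-116 with PAA and 6.81 ± 0.14 with DMSO (SD, n = 3 each). The RKO levels were 22.4 ± 0.55 with PAA (n = 3) and 10.1 ± 0.15 with DMSO (n = 2). The libraries of the 2 treatments did not overlap in either line. PRDX2, whose product sulfiredoxin also repairs, is no member and was left out of this sum. Its mean FPKM was 44.3 with PAA and 75.4 with DMSO in HCT-116, and 67.8 and 101.8 in RKO. TXNRD1 had 89.4 ± 2.47 per 100 FPKM of TXN in HCT-116 with PAA and 40.8 ± 10.4 with DMSO. In RKO it had 63.2 ± 14.5 with PAA and 22.4 ± 7.98 with DMSO, again without overlap.

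PRDX3 made up 5.39% ± 0.072 of the summed FPKM of PRDX1, PRDX3, PRDX5 and PRDX6 in HCT-116 with PAA and 8.11% ± 0.071 with DMSO. In RKO it made up 5.999% ± 0.15 with PAA and 8.27% ± 0.23 with DMSO. For all these ratios a 2-sided exact permutation test gave p = 0.1 in HCT-116 and p = 0.2 in RKO, the smallest these group sizes allow, so they cannot pass 0.05.

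**Figure D4:**
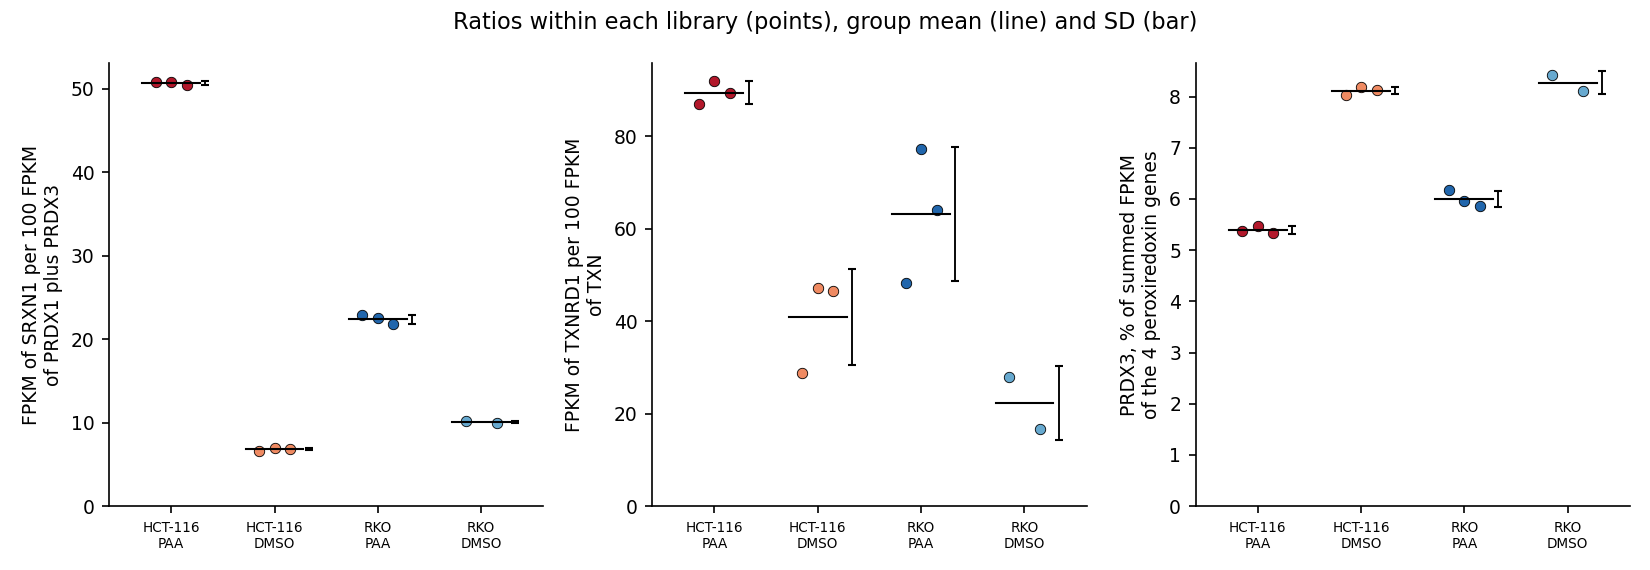
Ratios of FPKM within each library (points) in the 4 groups, with the mean as a line and the SD as a bar; vertical axes start at 0. SRXN1 per 100 FPKM of PRDX1 plus PRDX3 averages 50.7 in HCT-116 with PAA and 6.81 with DMSO, while the PRDX3 percentage is lower with PAA in both lines.

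With DMSO alone, the lines differed in most members: 4 were higher and 5 lower in RKO than in HCT-116, where 64.1% of all genes were called, 33.4% higher and 30.7% lower. The lines did not overlap for 9 members, all but TXNRD1, where 76.3% of all genes were so separated. TXNIP is counted among the higher ones, but since it passed the filter only through RKO, its levels are given as a description: 14.3 and 12.7 in RKO with DMSO, against 0, 0.18 and 0.18 in HCT-116 with DMSO, on 0 to 15 estimated fragments per library. The size of this difference is set by the pseudocount (3.70 log2 with 1 and 6.09 with 0.1). TXN2 (0.40), TXN (0.33) and PRDX6 (0.32) were higher by less, and TXN was lost after quantile normalization (0.10, adjusted p = 0.309). PRDX1 was lower in RKO (mean FPKM 422 in RKO and 749 in HCT-116; -0.83 ± 0.030 log2, limma adjusted p = 1.23e-08). PRDX3 (-0.59), PRDX5 (-0.51), TXNRD2 (-0.27) and SRXN1 (-0.23) were also lower; TXNRD2 lost its call on summed isoform values (-0.09, adjusted p = 0.546). TXNRD1 was not called (-0.54 ± 0.27, limma adjusted p = 0.114), but it was called without HCT-116 DMSO replicate 1 (-0.75, adjusted p = 0.0362) and without RKO DMSO replicate 2 (-0.94, adjusted p = 0.0206). The transcript PRDX1-204 had an FPKM of 4.87 and 0 in RKO with DMSO, against 252, 123 and 200 in HCT-116 with DMSO (-6.25 ± 0.70 log2, limma adjusted p = 0.000276). Between the lines with DMSO, 19.5% of all isoforms were called, 9.84% higher and 9.69% lower.

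For the difference between the PAA effects, RKO minus HCT-116, limma called 1 member higher (TXNRD2) and 4 lower (SRXN1, TXN, PRDX1 and TXNIP, the last on HCT-116 values near 0), where 31.0% of all genes were called, 21.3% higher and 9.68% lower. SRXN1 kept its call under all 21 alternatives run, between -2.14 and -1.86. Within the lines, SRXN1, TXNRD1 and PRDX3 kept direction and call under all 22 alternatives in both HCT-116 and RKO, as did TXN and PRDX5 in HCT-116.

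**Figure D5:**
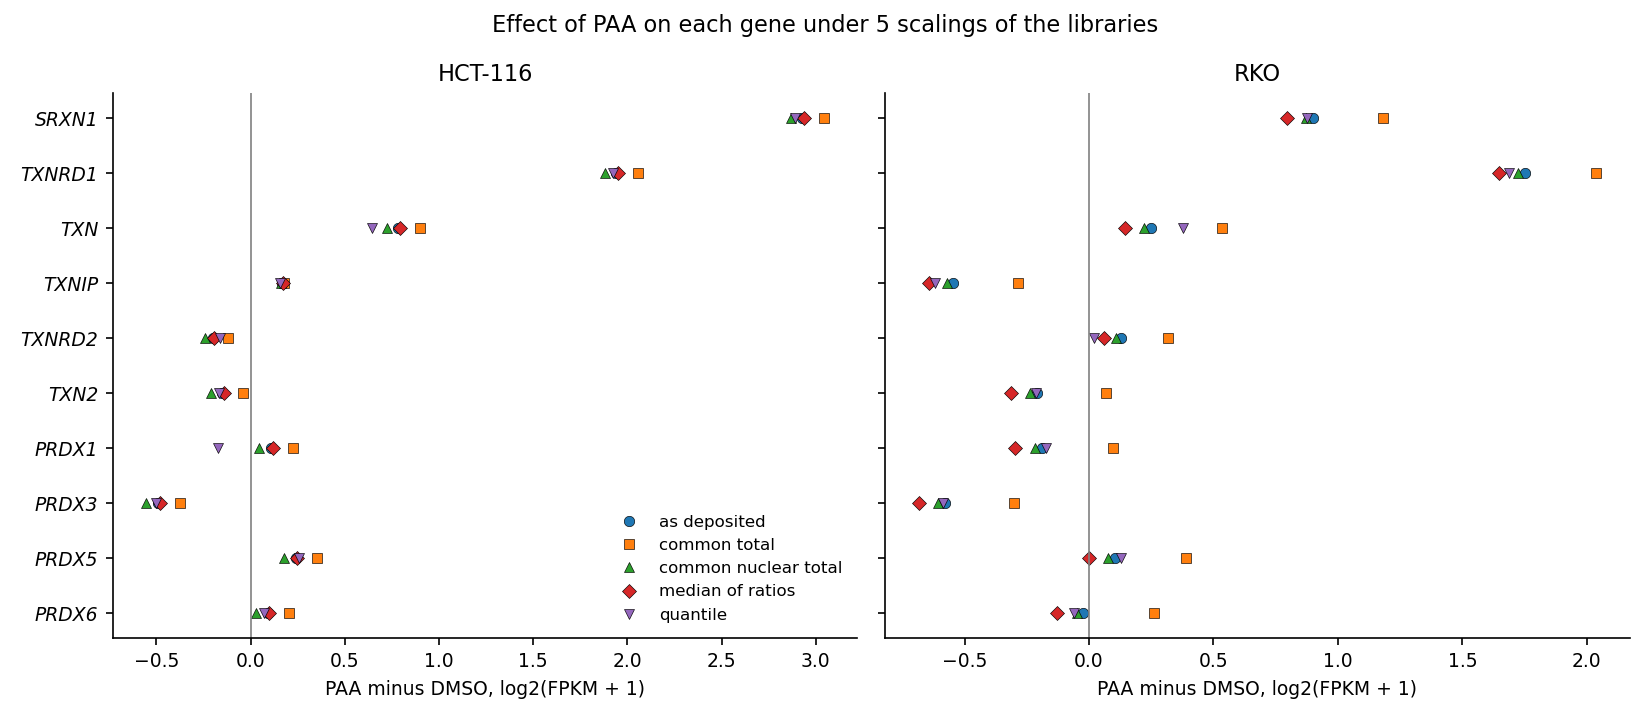
Log2 difference, PAA minus DMSO (horizontal axis), of each member in HCT-116 and RKO under 5 scalings of the libraries. SRXN1 and TXNRD1 stay right of 0 and PRDX3 left of it in both lines, whereas with a common total TXN2 and PRDX1 cross to 0.07 and 0.10 in RKO.

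The gene lists that follow stand beside 21.7% of all genes higher and 25.3% lower in HCT-116, and 25.7% higher and 14.3% lower in RKO. Other genes with a thioredoxin fold were split. Of 20 tested, 4 were higher and 5 lower with PAA in each line, with a median log2 difference of 0.10 in HCT-116 and -0.04 in RKO. PRDX2, a cytosolic peroxiredoxin that sulfiredoxin also repairs, fell in both lines. It averaged 44.3 ± 1.70 with PAA and 75.4 ± 1.99 with DMSO in HCT-116 (SD, n = 3 each; limma adjusted p = 6.58e-07). In RKO it averaged 67.8 ± 2.30 with PAA (n = 3) and 101.8 ± 0.058 with DMSO (n = 2; limma adjusted p = 1.28e-05). NXN, nucleoredoxin, averaged 9.40 ± 0.20 with PAA and 18.1 ± 0.84 with DMSO in HCT-116 (limma adjusted p = 2.66e-06). TXNDC12 (0.44) and TXNL1 (0.42) rose in HCT-116, and the glutaredoxins GLRX3 (0.46) and GLRX (0.36) rose in RKO, on the log2 scale; GLRX3 lost its call on summed isoform values.

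Of 6 selenoprotein synthesis genes tested, 3 were higher and 1 lower in HCT-116, and 2 higher and 1 lower in RKO; the medians were 0.14 and 0.29 in these lines. SEPHS2, which makes the selenium donor for selenocysteine, had the largest rise of the list in both. It averaged 58.5 ± 1.37 with PAA and 24.3 ± 0.48 with DMSO in HCT-116 (1.23 ± 0.034 log2 (SE), limma adjusted p = 2.01e-08). In RKO it averaged 73.1 ± 1.80 with PAA and 47.3 ± 1.79 with DMSO (0.62 ± 0.038 log2 (SE), limma adjusted p = 4.76e-06). Of 13 other selenoprotein genes, 4 were higher and 3 lower in HCT-116 and 2 were higher and 2 lower in RKO (medians -0.09 and -0.06). SELENOS, a selenoprotein of the endoplasmic reticulum, rose by 0.87 ± 0.042 in HCT-116 and 0.44 ± 0.046 in RKO (limma adjusted p = 4.69e-07 and 9.99e-05).

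Among 10 thioredoxin clients and methionine sulfoxide reductases, none was higher and 5 were lower in HCT-116, and 2 were higher and 3 lower in RKO (medians -0.24 and -0.13, against -0.01 and 0.06 over all genes). MAP3K5, the stress kinase ASK1 that thioredoxin holds inactive, fell by 0.57 ± 0.058 in HCT-116 and by 0.63 ± 0.064 in RKO (limma adjusted p = 4.79e-05 and 8.45e-05). MSRB2, a methionine sulfoxide reductase, had the largest rise of the list in RKO (0.78 ± 0.098, limma adjusted p = 0.000271). RRM2B, a ribonucleotide reductase subunit, rose in RKO by 0.37 ± 0.043 (limma adjusted p = 0.000176). In HCT-116 RRM2B lay lower with PAA, at a mean FPKM of 14.2 against 17.4 with DMSO. Of 4 other peroxide and superoxide enzymes tested, 1 was higher and 1 lower in each line. These were GSR, glutathione reductase (0.48 ± 0.084 in HCT-116 and 0.36 ± 0.094 in RKO, limma adjusted p = 0.00142 and 0.0139), and CAT, catalase (-0.79 ± 0.079 and -0.55 ± 0.088, adjusted p = 4.59e-05 and 0.00112). The GSR call in RKO was lost without RKO DMSO replicate 3 and with median-of-ratios scaling.

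Around TXNIP, 2 of 7 alpha-arrestin and MondoA partner genes were higher and 3 lower in HCT-116 (median 0.01). All 7 were higher in RKO (median 0.24, against 0.06 over all genes, of which 25.7% were higher), but 4 were called there with median-of-ratios, quantile or nuclear-total scaling. ARRDC3, an alpha-arrestin related to TXNIP, averaged 17.5 ± 0.50 with PAA and 7.47 ± 0.27 with DMSO in HCT-116 (1.13 ± 0.041 log2 (SE), limma adjusted p = 9.3e-08). ARRDC4 averaged 2.41 ± 0.040 with PAA and 1.20 ± 0.14 with DMSO in the same line (0.63 ± 0.053 log2 (SE), limma adjusted p = 1.36e-05).

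Of the tested genes that are no members, the 3 with the profile most like that of SRXN1 over the 11 libraries were HKDC1, OSGIN1 and SPRR2D. Their root mean square differences from it, after each gene's mean log2(FPKM + 1) was subtracted, were 0.30, 0.34 and 0.35. OSGIN1 averaged 41.3 in HCT-116 with PAA and 6.19 with DMSO, and 12.0 in RKO with PAA and 2.63 with DMSO. HKDC1 averaged 8.52 in HCT-116 with PAA and 0.68 with DMSO, and 0.56 in RKO with PAA and 0.011 with DMSO. SPRR2D averaged 6.93 in HCT-116 with PAA and 0.014 with DMSO, and was at 0 in both RKO groups. It passed the filter only through HCT-116 with PAA and did not share the rise of SRXN1 in RKO. The 3 most like TXNIP were C2CD2, HSD17B1 and DLC1, at 0.12, 0.15 and 0.21. C2CD2 averaged 40.2 in RKO with PAA and 59.5 with DMSO, and 4.04 in HCT-116 with PAA and 3.61 with DMSO.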

How the data were processed

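RNA of 11 HCT-116 and RKO libraries was compared between PAA and DMSO within each line, between the lines with DMSO, and for the difference between the PAA effects. The deposited FPKM values for 60612 genes and 229420 isoforms were calculated by the authors; per the submitters' processing notes, cutadapt 1.9, FastQC and GRCh38 were used. Not given in the sources used here are the aligner, the quantifier, the annotation release, the RNA selection and whether counting used strand. The deposited placeholder 0.0001 was set to 0. The FPKM worth of 1 fragment in genes with a single transcript gave an estimate of depth; 20.4% to 23.6% of low values per library were whole multiples of it within 0.02 fragments, so reads were not recovered, and no counting interval is given. Groups came from the labels. Genes and isoforms that reached an FPKM of 1 in 2 or more libraries entered limma 3.58.1 (R 4.3.3) as log2(FPKM + 1), with 1 mean per group over all libraries and a mean-variance trend (residual degrees of freedom 7, prior 1.82 for genes). Tests are two-sided, adjusted by Benjamini-Hochberg over all features tested, with a threshold of 0.05. On this scale fold changes of low genes are understated. The script was tested on simulated data.

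All members, called or not, are named, with up to 3 isoforms each; from each list at most the 2 called genes of largest change in each direction per line could be named, and for SRXN1 and TXNIP the 3 genes most like them. PRDX1-204 is named under the rule for isoforms. Members and lists were chosen with earlier results of these data known. SOD2 was not matched. Isoforms were placed by GENCODE 29, which holds 89.5% of the isoform identifiers; promoters are from RefSeq. Alternatives changed the pseudocount, filter, scaling, gene value, trend, libraries and replicate block. Python 3.11.15, pandas 2.3.3 and scipy 1.17.1 were used.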

Additional observations from a re-analysis of the deposited data

Results flagged for a closer look

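For 5 members, TXNIP on HCT-116 values near 0 among them, limma's test called the difference between the PAA effects itself (RKO minus HCT-116, log2, adjusted over all genes). SRXN1 had -2.03 (adjusted p = 3.60e-08), with PAA above DMSO in every library of both lines. TXN had -0.53 (adjusted p = 0.00273), also with PAA above DMSO in both lines. PRDX1 had -0.30 (adjusted p = 0.000609), with PAA above DMSO in the HCT-116 libraries and below it in the RKO libraries. TXNRD2 had 0.33 (adjusted p = 0.00367), with PAA below DMSO in HCT-116 and above it in RKO. The TXNRD2 call was lost on summed isoform values and with the replicate block. TXNIP had -0.71 (adjusted p = 0.0336), with PAA below DMSO in RKO and overlapping groups near 0 in HCT-116, at 0 to 28.8 estimated fragments per library; it was tested only through its RKO level, its call was lost under 12 of 21 alternatives, and it does not show that the lines differ. No group had the 4 libraries needed for a test of single outlying libraries.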

How the results depend on the processing

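SRXN1, TXNRD1 and PRDX3 in both lines kept their direction and call under all 22 alternatives. Directions turned for PRDX1 in HCT-116 (-0.17) and PRDX1-202 in HCT-116 (-0.29) after quantile normalization, and TXN2 (0.068), PRDX1 (0.096) and PRDX6 (0.26) in RKO with a common total. Other gene values that were not called also changed sign: TXNRD2 in RKO on summed isoform values (-0.08), and the difference between the effects for TXNRD1 and TXN2 (under 2 and 3 alternatives) and for PRDX3, PRDX5 and PRDX6 (under 1 each). A common total moved the median of all genes in RKO to 0.28, against 0.06 as deposited, so the RKO values above it shift by about as much; it called 6902 genes higher and 731 lower there and 4028 and 2546 in HCT-116, and median-of-ratios scaling called 2611 and 2773 in RKO. Members called for the difference between the effects were 5, but 3 with a common total, 3 after quantile normalization, 3 on summed isoform values and 8 with median-of-ratios scaling. Leaving out each library gave 4 to 7 called members in RKO, 4 without RKO DMSO replicate 3, and 972 to 1793 called isoforms, against 1952; 1070 remained without RKO DMSO replicate 2 and 972 without RKO DMSO replicate 3. With each line fitted alone, 2063 isoforms were called in HCT-116 and 949 in RKO, with fewer libraries behind the spread. The causes of the other changes were not tested.

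Whether equal replicate numbers pair the libraries is not settled here. Deviations of same-numbered libraries correlated at 0.067, -0.13 and -0.13 in HCT-116 and -0.14 and -0.076 in RKO. Those of different-numbered libraries lay between -0.097 and 0.21 in HCT-116. In RKO the 2 DMSO libraries deviate from their mean by opposite amounts, so their correlations mirror each other and cannot decide. With the replicate block, 7 members were called in HCT-116 and 4 in RKO, 3 for the difference between the effects (2739 of all genes, against 4307), and 2 member isoforms in HCT-116 (396 of all isoforms, against 3388) and 1 in RKO (100, against 1952). The block could not be fitted for the difference between the lines with DMSO, since it is nested in the line. Depth limits TXNIP in HCT-116, at 0 to 28.8 estimated fragments, and 2 DMSO libraries limit RKO.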
